A study of Mus musculus with 16 samples.

Results

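The mRNA levels of 37 mouse genes of the ATF4 stress response and the unfolded protein response were examined in 16 organoid RNA-seq libraries. The genes were taken by name, with no measured value used, and matched to gene symbols. All 37 were found among the 24421 symbols of the 5 tumour count tables and in the 51912 entries of the table of normal tissues. They were treated as an ATF4 and amino acid arm of 16 genes and an ER (endoplasmic reticulum) chaperone arm of 21 genes. All 37 passed the filter on low counts in every comparison.

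The libraries came from C57BL/6 organoids, which are epithelial cells grown in a three-dimensional matrix. Tumour organoids of the TMPL genotype (Trp53-/-, Myc, a guide against Cdkn2a, and LMP1, a membrane oncoprotein of Epstein-Barr virus) were titled Lung-LMP1 (3 libraries) or LMP1 (2 libraries). Tumour organoids of the TMP genotype carry the same alterations without LMP1 and were titled Lung-Ctr (2 libraries) or Ctr (3 libraries). Untreated normal organoids of nasopharynx (Normal_nasopha) and lung (Normal_lung) gave 3 libraries each. Tumours grew in recipient mice after transplantation into the nasopharynx, per the labels. The descriptions call every TMPL library a metastasis and every TMP library primary, so genotype and this label cannot be told apart. The design text of the series goes against this, since it names both kinds of tumour organoid, primary and metastasized, under each genotype. Which libraries are metastases is therefore not settled here, and the Lung prefix is not read as a site. The promoters and vectors that drive Myc, the guide and LMP1 are not given in the labels, and neither is the age of the mice, nor whether a group holds several animals or 1 line. P-values therefore measure the spread between these libraries, which may be technical. The deposited table that sets Ctr against normal nasopharynx holds 3 normal columns with a normal lung heading, and these are called the normal comparator. By the values given below, these columns resemble Normal_nasopha and not Normal_lung.

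Eukaryotic cells meet amino acid shortage, oxidative stress and misfolded protein with kinases that phosphorylate the initiation factor eIF2, which lowers general translation and favours translation of Atf4 mRNA. ATF4 then turns on genes for amino acid import, serine and one-carbon synthesis, tRNA charging and feedback. The ER arm is driven mainly by ATF6 and by XBP1, whose mRNA is spliced by IRE1 (gene Ern1), and it supplies chaperones, disulfide isomerases and the machinery that returns misfolded protein to the cytosol (ER-associated degradation, ERAD). Gene-level counts of mRNA show neither ATF4 protein nor Xbp1 splicing.

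The promoter stretches of the ER arm are shown first, since a sequence element occurred in part of this arm and in no ATF4-arm gene with a window. RefSeq promoter windows (GRCm38.p6) of 250 bases before to 50 after the annotated start were held for 33 of the 37 genes, and none was used for Slc7a5, Manf, Hyou1 and Atf6. The ER stress response element ERSE (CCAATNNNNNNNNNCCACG, searched on both strands) is the classical site of ATF6 with NF-Y. It occurred in 8 of the 18 ER-arm genes with a window (44.4%) and in 0 of 15 ATF4-arm genes, against 37 of 27025 genes with a window (0.137%). The stretches below run 5′ to 3′ on the gene's own strand, with the match in capitals. Distances are to the RefSeq start, which can differ from the Ensembl gene spans given further on. The stretches of Hspa5 and of Asns lie within the Ensembl spans of these genes. A match is a stretch of letters and was not tested for binding.
Hspa5, chr2:34772015-34772053, plus strand, ending 47 bases before the start: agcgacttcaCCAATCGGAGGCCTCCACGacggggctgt
Hsp90b1, chr10:86705628-86705666, minus strand, ending 194 bases before the start: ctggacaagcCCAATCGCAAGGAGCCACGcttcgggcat
Hsp90b1, chr10:86705523-86705561, minus strand, ending 89 bases before the start: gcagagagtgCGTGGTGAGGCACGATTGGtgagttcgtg
Calr, chr8:84847065-84847103, minus strand, ending 144 bases before the start: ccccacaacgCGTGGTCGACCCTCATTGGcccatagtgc
Canx, chr11:50325790-50325828, minus strand, ending 127 bases before the start: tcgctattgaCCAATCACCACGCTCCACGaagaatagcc
Pdia6, chr12:17266481-17266519, plus strand, ending 80 bases before the start: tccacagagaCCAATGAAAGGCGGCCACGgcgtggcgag
Dnajc3, chr14:118937817-118937855, plus strand, ending 87 bases before the start: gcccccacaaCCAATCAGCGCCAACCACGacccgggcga
Creld2, chr15:88819510-88819548, plus strand, ending 108 bases before the start: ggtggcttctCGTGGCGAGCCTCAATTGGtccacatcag
Syvn1, chr19:6046522-6046560, plus strand, ending 26 bases before the start: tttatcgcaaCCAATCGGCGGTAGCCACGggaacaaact

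The second Hsp90b1 stretch and those of Calr and Creld2 hold the element on the opposite strand, so their capitals read as its reverse complement. A shorter relative, ERSE-II (ATTGG, 1 base of any kind, CCACG, on both strands), was searched after the first element and occurred in 2 of 18 ER-arm genes (11.1%) and in 0.0444% of all genes. Herpud1 held it just before its start, together with a copy of the ATF4 element described next. The C/EBP-ATF element CARE (TGATGNAA), at which ATF4 binds with C/EBP proteins, occurred in 4 of 15 ATF4-arm genes (26.7%), in 1 of 18 ER-arm genes (5.56%) and in 4.51% of all genes. The matches upstream of the start were in Asns, Chac1 and Slc7a11, and the Slc7a11 window held a pair of them, 1 on each strand.
Asns, chr6:7693215-7693242, minus strand, ending 16 bases before the start: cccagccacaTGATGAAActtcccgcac
Chac1, chr2:119351039-119351066, plus strand, ending 186 bases before the start: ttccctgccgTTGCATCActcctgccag
Slc7a11, chr3:50443662-50443689, minus strand, ending 59 bases before the start: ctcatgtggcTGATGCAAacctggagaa
Slc7a11, chr3:50443643-50443670, minus strand, ending 40 bases before the start: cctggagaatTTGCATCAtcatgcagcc
Herpud1 (CARE), chr8:94386307-94386334, plus strand, ending 105 bases before the start: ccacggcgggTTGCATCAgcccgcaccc
Herpud1 (ERSE-II), chr8:94386367-94386397, plus strand, ending 42 bases before the start: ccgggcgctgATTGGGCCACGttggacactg

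Library totals ran from 12535166 to 21737184 counts, and a floor of 3 counts in 1 library equals 0.138 to 0.239 CPM, the count of a gene relative to the library total. CPM below are scaled by TMM, a factor that sets libraries to a common composition, and floors cover counting error only. Trp53 lay between 54.8 and 110.4 CPM in the 10 tumour libraries and between 64.2 and 159.3 CPM in the comparator, so gene counts do not check its deletion. Cdkn2a lay between 121.6 and 374.8 CPM in tumours and below 9.26 CPM in all normal columns, and Myc between 456.7 and 1971.6 CPM in tumours and at most 102.0 CPM in the normal columns. The tables used here hold no value for LMP1. The 8 alveolar type 2 markers summed to between 60765.8 and 67934.3 CPM in Normal_lung and to at most 401.6 CPM elsewhere. The 8 basal epithelial markers summed to between 3049.2 and 15198.2 CPM in Normal_nasopha. The same-numbered comparator and Normal_nasopha columns had a Pearson r of 0.980 across 22651 genes, against 0.948 to 0.956 with the other Normal_nasopha libraries and 0.893 to 0.910 with Normal_lung, so the comparator is not treated as independent of Normal_nasopha.

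Within the tumours, Atf4 and a few genes of amino acid supply were higher in TMPL than in TMP organoids, while the ER chaperones as a group were not. In TMPL over TMP, 5 libraries against 5 with a term for the Lung prefix, 5 of the 16 ATF4-arm genes rose and none fell. In the same test 2 of 21 ER-arm genes fell and none rose, at an edgeR quasi-likelihood adjusted p under 0.05. Of all 13460 genes tested, 12.4% passed, 7.22% as higher and 5.13% as lower. The median log2 fold change was 0.22 over the ATF4 arm, -0.08 over the ER arm and -0.05 over all genes.

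Atf4 encodes the transcription factor of the arm (Ensembl ENSMUSG00000042406.8, chr15:80255184-80257541, plus strand, GRCm38). It had 440.2, 508.5 and 559.5 CPM in Lung-LMP1 and 553.1 and 502.4 CPM in LMP1, against 202.5 and 184.5 CPM in Lung-Ctr and 249.9, 174.5 and 189.6 CPM in Ctr. Every TMPL library was above every TMP library, and the values with and without the Lung prefix overlapped within each genotype. Its log2 fold change was 1.34 ± 0.13 (SE; edgeR adjusted p = 0.00326). Atf5, a related factor also controlled at translation, had 54.3, 41.5 and 52.9 CPM in Lung-LMP1 and 98.9 and 83.2 CPM in LMP1, against 28.5 and 22.1 CPM in Lung-Ctr and 18.6, 38.9 and 30.4 CPM in Ctr. The genotypes again did not overlap, with a log2 fold change of 1.27 ± 0.22 (SE; edgeR adjusted p = 0.00958), and the 2 LMP1 libraries were the highest. Reads of Atf5 overlap exons of Il4i1 and Nup62 on the other strand, and whether the counting used strand is not given in the sources used here. Ddit3, the factor CHOP of prolonged stress, did not follow, at 0.12 ± 0.32 (SE; edgeR adjusted p = 0.833).

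**Figure D1:**
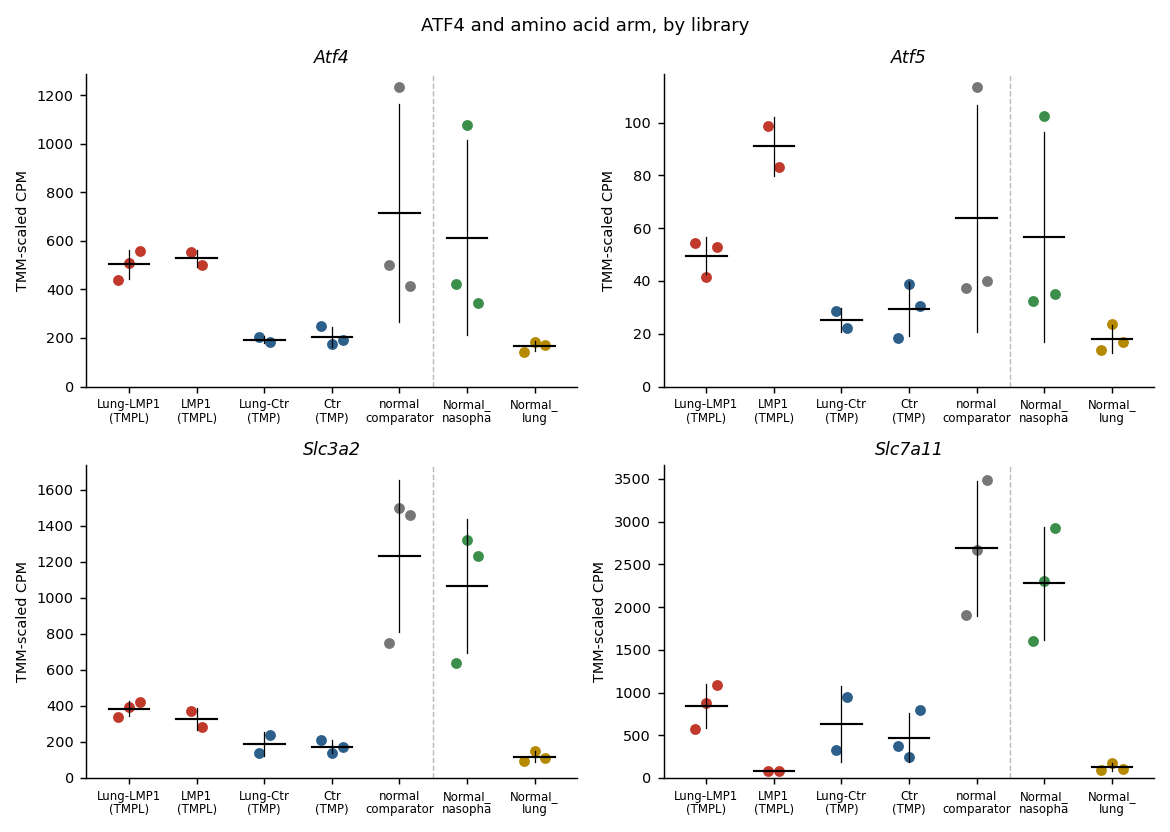
TMM-scaled CPM of 4 genes of the ATF4 arm (y axis) in each library (points) of the 7 sets of columns (x axis), with the mean (horizontal bar) and SD (vertical line); columns right of the dashed line were scaled in a separate fit. Atf4 separates the TMPL libraries (440.2 to 559.5 CPM) from the TMP libraries (174.5 to 249.9 CPM), and Slc7a11 is low in LMP1 (85.2 and 83.9 CPM) and in Normal_lung.

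Of the 3 amino acid transport genes, Slc3a2 rose. It encodes the heavy chain shared by several amino acid exchangers, and it had 340.7, 396.2 and 420.2 CPM in Lung-LMP1 and 369.7 and 284.6 CPM in LMP1, against 139.8 and 237.8 CPM in Lung-Ctr and 210.2, 137.7 and 172.8 CPM in Ctr. Its log2 fold change was 0.94 ± 0.18 (SE; edgeR adjusted p = 0.0134). The light chain Slc7a5, which joins it in the importer of large neutral amino acids, had 0.33 ± 0.20 (SE; edgeR adjusted p = 0.308). Of the 5 serine and one-carbon genes, Shmt2 and Phgdh rose. Shmt2, the mitochondrial serine hydroxymethyltransferase, had 478.7, 412.5 and 537.4 CPM in Lung-LMP1 and 523.5 and 473.9 CPM in LMP1, against 237.3 and 308.6 CPM in Lung-Ctr and 354.3, 293.2 and 365.5 CPM in Ctr. The genotypes were separate, with a log2 fold change of 0.65 ± 0.13 (SE; edgeR adjusted p = 0.0146). Phgdh, the first enzyme of serine synthesis, had 0.53 ± 0.12 (SE; edgeR adjusted p = 0.0247), with 536.6 to 655.0 CPM in TMPL and 328.1 to 473.2 CPM in TMP. The other three of that pathway, Psat1, Psph and Mthfd2, lay between -0.22 and 0.05. Asns (asparagine synthetase), Trib3 and Ppp1r15a (feedback inhibitors), Chac1 (which degrades glutathione) and Eif2ak3 (the ER-resident eIF2 kinase PERK) lay between -0.27 and 0.54, and none passed the test.

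In 5 of the 16 ATF4-arm genes, the same 5 that were called, every TMPL library lay above every TMP library, and in 6.27% of all genes. The 8 basal epithelial markers had a median log2 fold change of -2.52 in this comparison, all 8 negative and none called, with sums of 163.1 to 4582.7 CPM in TMPL and 1045.6 to 5200.1 CPM in TMP. Their part was not tested. Without LMP1 replicate 1 the ATF4-arm calls in TMPL over TMP numbered 2, with Phgdh, Shmt2 and Slc3a2 lost, where 424 of 14015 genes passed. Without LMP1 replicate 2 they numbered 3, with Phgdh and Shmt2 lost, where 263 of 14051 genes passed. A correction for gene length and GC content left 2 of the 5, Atf4 and Slc3a2, where 678 of 13460 genes passed.

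On the ER side, Edem1 and Dnajc3 fell. Edem1, which marks misfolded glycoproteins for ERAD, had 77.1, 91.4 and 86.9 CPM in Lung-LMP1 and 76.4 and 86.1 CPM in LMP1, against 123.5 and 116.1 CPM in Lung-Ctr and 118.5, 125.9 and 122.3 CPM in Ctr. It was the 1 ER-arm gene with every TMPL library below every TMP library, a pattern of 3.50% of all genes, and had a log2 fold change of -0.57 ± 0.09 (SE; edgeR adjusted p = 0.00828). Dnajc3, the co-chaperone P58IPK that inhibits PERK, had -0.44 ± 0.12 (SE; edgeR adjusted p = 0.0457), but its genotypes overlapped. It had 107.0, 105.5 and 88.3 CPM in Lung-LMP1 and 86.7 and 91.8 CPM in LMP1, against 151.5 and 106.4 CPM in Lung-Ctr and 122.7, 126.3 and 115.9 CPM in Ctr. Leaving out any 1 library other than Lung-Ctr replicate 2 ended its call.

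Hspa5 encodes BiP, the main ER chaperone and the usual marker of ER stress (ENSMUSG00000026864.13, chr2:34771970-34777547, plus strand, GRCm38). It had 1136.2, 1031.4 and 901.7 CPM in Lung-LMP1 and 672.9 and 910.9 CPM in LMP1, against 1168.1 and 1148.9 CPM in Lung-Ctr and 1295.2, 1022.6 and 987.3 CPM in Ctr. Its log2 fold change was -0.36 ± 0.14 (SE; edgeR adjusted p = 0.128), with overlapping genotypes. Hsp90b1 (the chaperone GRP94) had -0.48 ± 0.14 (SE; edgeR adjusted p = 0.0564) and Dnajb9 (a BiP co-chaperone) -0.63 ± 0.19 (SE; edgeR adjusted p = 0.059). Dnajb11, another BiP co-chaperone, lay in the opposite direction at 0.61 ± 0.20 (SE; edgeR adjusted p = 0.0782). The 8 genes with an ERSE in their window had a median log2 fold change of -0.11 and 1 call, and the 13 without a match or a window had -0.08 and 1 call.

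**Figure D2:**
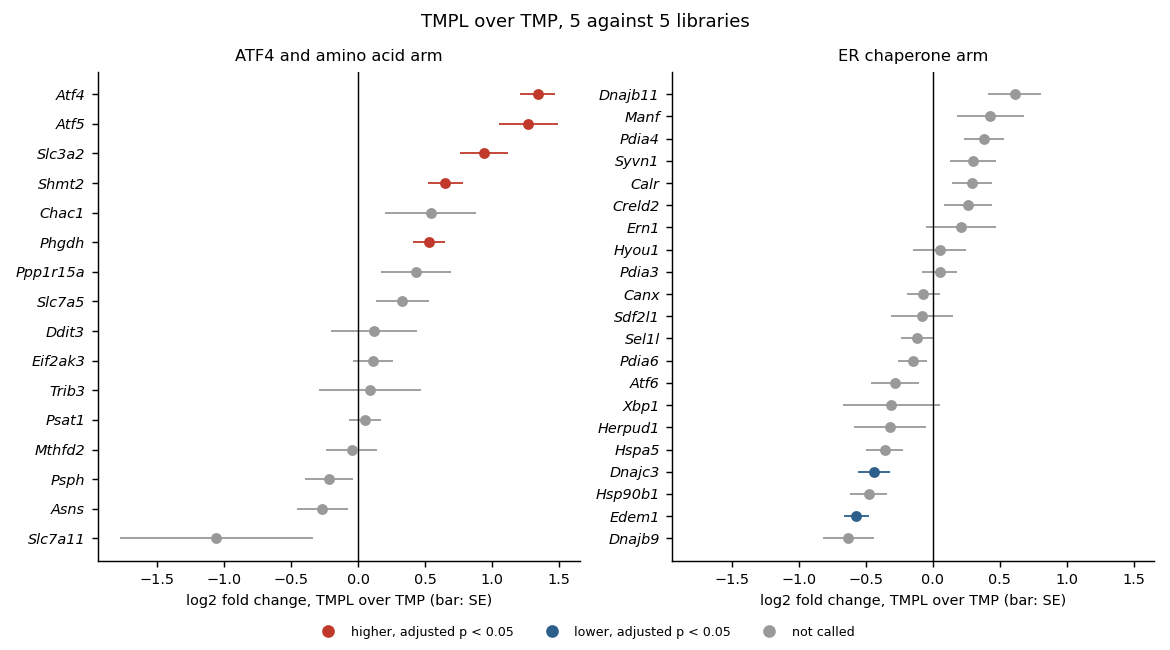
Log2 fold change of TMPL over TMP (x axis, bar: SE) for each gene of the 2 arms (y axis, sorted), 5 against 5 libraries; red and blue mark genes higher or lower at an edgeR adjusted p under 0.05. Atf4 and Atf5 stand furthest to the right (1.34 and 1.27), and the ER arm spreads from -0.63 to 0.61 with 2 genes called lower.

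Lists of the same pathways outside the 37 were counted in TMPL over TMP, where 7.22% of all genes rose and 5.13% fell. Of 38 other ATF4 targets 3 rose, near the share of all genes, and none fell (median 0.20). Those higher included Cebpb, a C/EBP factor (1.24 ± 0.27 SE; edgeR adjusted p = 0.0202), and Wars, the tryptophanyl-tRNA synthetase (0.46 ± 0.10 SE; edgeR adjusted p = 0.0209). Cebpb averaged 222.1 CPM in LMP1, 83.6 CPM in Lung-LMP1 and 55.9 CPM in TMP. It was lower in Lung-LMP1 than in LMP1 (-1.37 ± 0.13 SE; edgeR adjusted p = 0.00182). Of 21 other ER folding genes 3 rose and 4 fell, with Fkbp2, an ER prolyl isomerase, higher (1.12 ± 0.20 SE; edgeR adjusted p = 0.0102) and Sdf2 lower (-0.64 ± 0.12 SE; edgeR adjusted p = 0.0116). The translocon and oligosaccharyl transferase genes had 2 higher and 2 lower of 21, and other ERAD genes 1 higher and 1 lower of 16 tested.

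In LMP1 over Ctr, 2 libraries against 3, the ATF4 arm had 2 genes higher and 1 lower, the ER arm 1 lower, where 16.4% of all genes passed (7.36% higher, 9.06% lower). Atf4 (1.31 ± 0.18 SE; edgeR adjusted p = 0.00506) and Atf5 (1.59 ± 0.28 SE; edgeR adjusted p = 0.011) rose, and Edem1 fell (-0.64 ± 0.14 SE; edgeR adjusted p = 0.0178). Slc7a11, the cystine importer xCT that supplies glutathione synthesis (ENSMUSG00000027737.10, chr3:49892526-50443614, minus strand, GRCm38), fell, at 85.2 and 83.9 CPM in LMP1 against 368.4, 249.3 and 795.1 CPM in Ctr. The groups were far apart, and the log2 fold change was -2.52 ± 0.61 (SE; edgeR adjusted p = 0.0267). In the same libraries the 8 basal epithelial markers summed to 163.1 and 217.3 CPM in LMP1 against 1441.8 to 3827.4 CPM in Ctr, 7 of the 8 fell, and none was at 0. The 8 fibroblast markers summed to 82.2 and 40.3 CPM in LMP1, against 1.11, 104.1 and 0.276 CPM in Ctr replicates 1, 2 and 3. The part of these cells in the result was not tested, and fewer cells of a type and less RNA per cell cannot be told apart. Without LMP1 replicate 1 no gene of either arm was called, and only 25 of 14015 genes were. Without LMP1 replicate 2 Atf4 alone of the 4 was called, and 126 of 14051 genes were.

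In Lung-LMP1 over Lung-Ctr, 3 libraries against 2, no gene of either arm passed with edgeR, nor did any of the 13460 genes (0.00%). At an unadjusted p under 0.05 there were 5 ATF4-arm and 1 ER-arm genes, where 17.1% of all genes were. DESeq2 called 3 and 1, and 6.07% of all genes. The authors' deposited table called 4 ATF4-arm genes higher and no ER-arm gene, with 2.25% of its genes higher and 1.17% lower. Atf4 had a log2 fold change close to that of LMP1 over Ctr, 1.36 ± 0.19 (SE; edgeR adjusted p = 0.109), with Shmt2 next at 0.79 ± 0.18 (SE; edgeR adjusted p = 0.119). Edem1 and Dnajb11 had the smallest p in the ER arm, at -0.51 ± 0.13 (SE; edgeR adjusted p = 0.137) and 0.66 ± 0.30 (SE; edgeR adjusted p = 0.311). The median log2 fold change was 0.41 over the ATF4 arm, -0.08 over the ER arm and -0.04 over all genes. Of the ATF4 arm, 7 genes had Lung-LMP1 libraries all above the Lung-Ctr libraries and none all below, where 17.9% of all genes lay wholly above and 15.2% wholly below.

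Between the prefixes, Slc7a11 was the 1 gene of the 37 called by edgeR. In Lung-LMP1 over LMP1, 3 libraries against 2, it had 567.4, 880.9 and 1084.7 CPM in Lung-LMP1 against 85.2 and 83.9 CPM in LMP1, a log2 fold change of 3.36 ± 0.63 (SE; edgeR adjusted p = 0.0151). It was the 1 gene called of 16 in the ATF4 arm, where 10.1% of all genes passed (6.17% higher, 3.95% lower), and it lost the call without either LMP1 library. No ER-arm gene passed with edgeR, 3 of 21 were at an unadjusted p under 0.05, where 27.4% of all genes were, and DESeq2 called 1, with 18.1% of all genes. The authors' deposited values called 2 ATF4-arm genes higher and 1 lower, and 4 ER-arm genes higher and 0 lower. Of the 14262 genes with an adjusted p there, 2056 were higher and 1677 lower. Herpud1, an ERAD scaffold, had the smallest p, at 1.05 ± 0.29 (SE; edgeR adjusted p = 0.0532), with 119.8, 210.4 and 137.9 CPM in Lung-LMP1 against 78.1 and 77.1 CPM in LMP1. Ern1 followed at 0.82 ± 0.32 (SE; edgeR adjusted p = 0.136). The basal markers summed to between 2857.2 and 4582.7 CPM in Lung-LMP1, with 7 of the 8 higher than in LMP1. The fibroblast markers summed to at most 1.57 CPM in Lung-LMP1 against 82.2 and 40.3 CPM in LMP1, with all 5 tested negative and 1 called. The part of these cells was not tested here either.

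In Lung-Ctr over Ctr, 2 libraries against 3, no gene of either arm passed, 0.00% of all genes did with edgeR, and no member was at an unadjusted p under 0.05 or called by DESeq2, where 5.33% and 0.306% of all genes were. The smallest p belonged to Slc7a5 (-0.47 ± 0.27 SE) and Shmt2 (-0.30 ± 0.17 SE) in the ATF4 arm and to Pdia6 (0.29 ± 0.15 SE) and Sel1l (0.31 ± 0.17 SE) in the ER arm, each at an edgeR adjusted p of 0.915. Slc7a11 had 322.2 and 951.3 CPM in Lung-Ctr, which overlapped its Ctr values. The test of the difference itself, the interaction of genotype and Lung prefix, called no gene of either arm with edgeR, where 0.892% of all genes passed, with 2 ATF4-arm genes and 1 ER-arm gene at an unadjusted p under 0.05, where 15.6% of all genes were. Slc7a11 was at 2.91 ± 0.81 (SE; edgeR adjusted p = 0.138) and was the 1 gene of the 37 that DESeq2 called, with 6.77% of all genes. Mthfd2 followed at 0.76 ± 0.30 (SE; edgeR adjusted p = 0.275), and in the ER arm Herpud1 was at 1.12 ± 0.40 (SE; edgeR adjusted p = 0.233) and Ern1 at 0.88 ± 0.44 (SE; edgeR adjusted p = 0.385). Atf4 was at 0.05 ± 0.26 (SE; edgeR adjusted p = 0.958).

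Against the normal comparator, the ATF4 arm split in opposite directions in the tumours. Of the 5 serine and one-carbon genes 4 rose, as did Slc7a5, while Atf4, Ddit3, Chac1, both feedback genes, Slc3a2 and Slc7a11 fell. Psph (0.43 ± 0.17 SE; edgeR adjusted p = 0.0588) and Atf5 (-0.58 ± 0.32 SE; edgeR adjusted p = 0.161) did not pass. Over the mean of the 4 tumour groups, with all 13 libraries fitted, 5 of 16 ATF4-arm genes rose and 7 fell, and 2 of 21 ER-arm genes rose and 8 fell, where 44.7% of all 14096 genes passed (18.9% higher, 25.8% lower). The median log2 fold change was -0.39 over the ATF4 arm, -0.33 over the ER arm and -0.07 over all genes. Markers of other cell types fell in the same comparison. Of the 8 basal epithelial markers 7 fell, none at 0, with sums of 163.1 to 5200.1 CPM in tumours and 3899.1 to 19484.5 CPM in the comparator. All 6 secretory airway and all 4 myeloid markers tested fell, as did 6 of 8 alveolar type 2 markers, and their part in the results below was not tested. The ATF4-arm median became 0.03 with the length and GC correction and 0.01 without comparator replicate 2.

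Slc7a5 ran from 358.6 to 723.0 CPM in the 10 tumour libraries, with a median of 571.3 CPM, against 202.1, 116.6 and 172.7 CPM in the comparator, a log2 fold change of 1.72 ± 0.25 (SE; edgeR adjusted p = 0.000408). Shmt2 (1.02 ± 0.19 SE; edgeR adjusted p = 0.00164), Psat1 (0.76 ± 0.19 SE; edgeR adjusted p = 0.00695), Phgdh (0.69 ± 0.17 SE; edgeR adjusted p = 0.0067) and Mthfd2 (0.51 ± 0.18 SE; edgeR adjusted p = 0.0378) made 4 of 5 serine and one-carbon genes higher. Slc3a2 went the other way from its partner Slc7a5, with 137.7 to 420.2 CPM in tumours and a median of 261.2 CPM, against 748.7, 1497.6 and 1460.8 CPM in the comparator and a log2 fold change of -2.28 ± 0.21 (SE; edgeR adjusted p = 4.73e-05). Its other partner Slc7a11 fell with it, with 83.9 to 1084.7 CPM in tumours and a median of 467.9 CPM, against 1906.3, 2667.1 and 3487.9 CPM in the comparator (-2.81 ± 0.35 SE; edgeR adjusted p = 0.000187). No tumour library reached the comparator for either gene.

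Chac1 had 9.31 to 40.7 CPM in tumours, with a median of 20.6 CPM, against 68.0, 287.9 and 68.1 CPM in the comparator (-2.77 ± 0.43 SE; edgeR adjusted p = 0.000655). Trib3, Ddit3, Ppp1r15a and Atf4 (-1.16 ± 0.26 SE; edgeR adjusted p = 0.00474) also fell, and the call of Atf4 was lost with the length and GC correction. For Ddit3 and Ppp1r15a the comparator replicates differed widely among themselves. Ddit3 had 6.56 to 22.1 CPM in tumours against 26.1, 243.3 and 19.7 CPM in the comparator, and Ppp1r15a 15.2 to 47.4 CPM in tumours against 65.3, 599.1 and 42.7 CPM in the comparator. Without comparator replicate 2, Ddit3, Ppp1r15a and Trib3 were no longer called and 9 of the 12 calls remained, where 5162 of 13940 genes passed. Taken by tumour group, Atf4 was at -1.89 ± 0.41 in Lung-Ctr and -1.81 ± 0.35 in Ctr, with edgeR adjusted p = 0.00814 and 0.00348, and at -0.51 ± 0.34 in Lung-LMP1 and -0.44 ± 0.39 in LMP1, with edgeR adjusted p = 0.268 and 0.408 (log2 fold change over the comparator ± SE). These 4 contrasts share the comparator columns.

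In the ER arm, both secreted ER stress proteins fell, Creld2 (-1.03 ± 0.20 SE; edgeR adjusted p = 0.00186) and Manf (-1.10 ± 0.23 SE; edgeR adjusted p = 0.0035). So did the disulfide isomerases Pdia4 (-1.13 ± 0.18 SE; edgeR adjusted p = 0.000706) and Pdia6 (-0.70 ± 0.11 SE; edgeR adjusted p = 0.000752), the co-chaperones Dnajb9 and Dnajb11, the sensor gene Ern1 and the factor gene Xbp1 (-0.98 ± 0.34 SE; edgeR adjusted p = 0.0358). The lectin chaperone gene Canx (0.36 ± 0.13 SE; edgeR adjusted p = 0.0353) and Edem1 (0.42 ± 0.12 SE; edgeR adjusted p = 0.0126) rose. Hspa5 had 672.9 to 1295.2 CPM in tumours against 1166.6, 2878.0 and 620.6 CPM in the comparator, and its difference of -0.62 ± 0.33 did not pass (SE; edgeR adjusted p = 0.144). Pdia4 had 73.7 to 135.4 CPM in tumours, with a median of 100.1 CPM, against 188.6, 291.8 and 169.8 CPM in the comparator. Pdia6 had 179.3 to 261.1 CPM in tumours, with a median of 195.3 CPM, against 334.6, 308.6 and 329.6 CPM in the comparator. Neither overlapped. Creld2 had 18.8 to 36.5 CPM in tumours, with a median of 25.9 CPM, against 69.6, 53.6 and 41.6 CPM in the comparator. Manf had 47.3 to 103.8 CPM in tumours, with a median of 76.6 CPM, against 190.6, 162.0 and 111.4 CPM in the comparator, again with no overlap. Without comparator replicate 2, Canx, Dnajb9, Xbp1 and Ern1 were no longer called, and without replicate 3, Canx, Edem1, Xbp1 and Ern1.

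**Figure D3:**
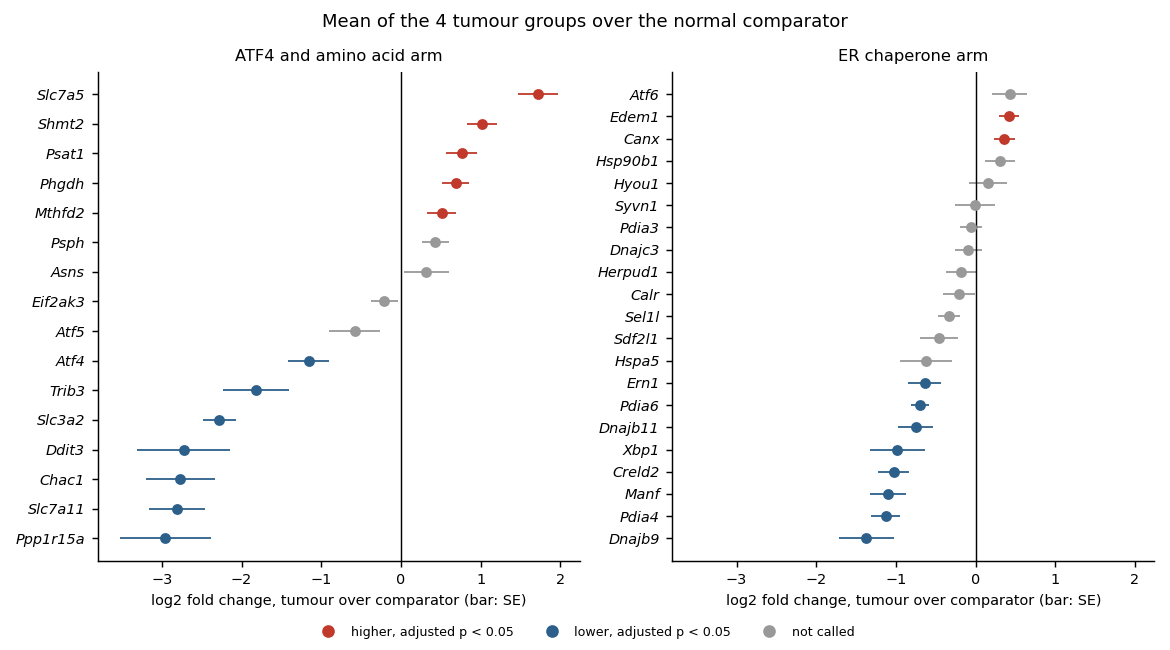
Log2 fold change of the mean of the 4 tumour groups over the normal comparator (x axis, bar: SE) for each gene of the 2 arms (y axis, sorted), 10 against 3 libraries; red and blue mark genes higher or lower at an edgeR adjusted p under 0.05. The ATF4 arm runs from Slc7a5 at 1.72 to Ppp1r15a at -2.96.

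Comparator replicate 2 stood apart from the others in more than these genes. Its basal markers summed to 3899.1 CPM, against 19484.5 and 12987.1 CPM in replicates 1 and 3, its myeloid markers to 303.5 CPM, against 77.5 and 143.4 CPM, and its secretory airway markers to 27.5 CPM, against 674.2 and 273.2 CPM. Only 2 of the 7 myeloid markers reached 10 CPM in each comparator column. Ptprc, another of the 7, had 0 counts in comparator replicate 2 and was detected in replicates 1 and 3. The part of these cell types in the high values of comparator replicate 2 was not tested. With Ctr alone against the comparator, 3 libraries each, 6 ATF4-arm genes were called (1 higher, 5 lower) and 6 ER-arm genes (1 higher, 5 lower), where 22.4% of all 13034 genes passed (9.67% higher, 12.7% lower). Slc3a2 had the smallest p there (-2.82 ± 0.36 SE; edgeR adjusted p = 0.00978), followed by Slc7a5 (1.79 ± 0.34 SE; edgeR adjusted p = 0.0163), and in the ER arm Pdia4 (-1.28 ± 0.29 SE; edgeR adjusted p = 0.0233). These counts varied with single libraries. Without Ctr replicate 2 they were 1 and 0, where 718 of 13502 genes were called. They were 2 and 3 without Ctr replicate 1 (1366 of 13525 genes) and 2 and 0 without Ctr replicate 3 (849 of 13610). Without comparator replicate 1 they were 9 and 5 (3576 of 13322 genes). They were 6 and 3 without comparator replicate 2 (2021 of 13340) and 3 and 2 without comparator replicate 3 (955 of 13153).

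**Figure D4:**
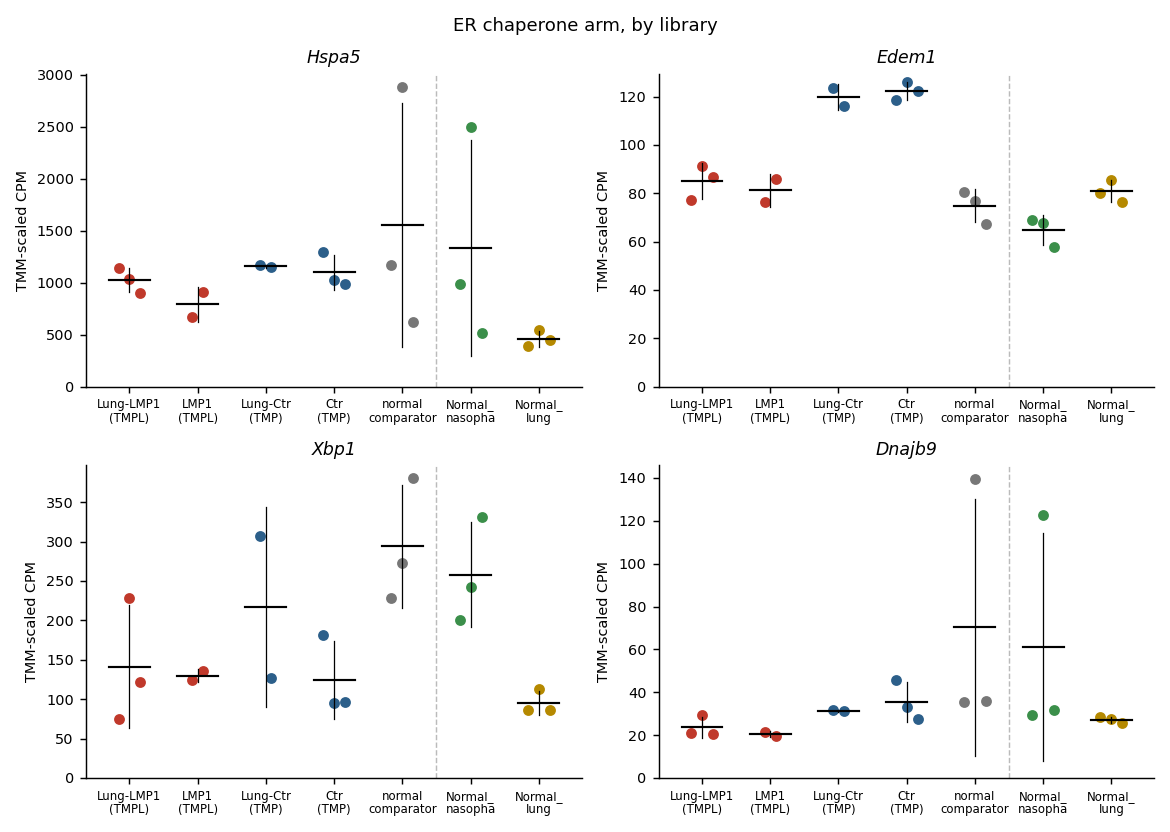
TMM-scaled CPM of 4 genes of the ER arm (y axis) in each library (points) of the 7 sets of columns (x axis), with the mean (horizontal bar) and SD (vertical line); columns right of the dashed line were scaled in a separate fit. Edem1 is lower in every TMPL library than in every TMP library, and Hspa5 and Dnajb9 are high in replicate 2 of the comparator (2878.0 and 139.3 CPM) and of Normal_nasopha (2501.0 and 122.6 CPM). The comparator and Normal_nasopha columns are not treated as independent.

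Between the normal organoids most of the ATF4 arm differed. In Normal_nasopha over Normal_lung, 3 libraries each, 13 of the 16 ATF4-arm genes rose and none fell, where 31.1% of all 15886 genes passed (15.4% higher, 15.6% lower). In the ER arm 4 of 21 rose and 3 fell. The median log2 fold change was 2.68 over the ATF4 arm, 0.43 over the ER arm and 0.13 over all genes. The authors' deposited table called 14 of the 15 ATF4-arm genes with an adjusted p higher, and 4 ER-arm genes higher and 3 lower, with 14.8% of its genes higher and 16.2% lower.

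All 5 serine and one-carbon genes rose. Psph, the last enzyme of serine synthesis, had 52.3, 67.8 and 70.1 CPM in Normal_nasopha against 8.77, 11.3 and 9.97 CPM in Normal_lung, with a log2 fold change of 2.66 ± 0.21 (SE; edgeR adjusted p = 0.000371). Mthfd2, of mitochondrial one-carbon metabolism, had 125.9, 135.3 and 90.3 CPM in Normal_nasopha against 16.8, 24.1 and 18.7 CPM in Normal_lung (2.56 ± 0.24 SE; edgeR adjusted p = 0.000627). Phgdh had 232.7, 174.3 and 161.5 CPM in Normal_nasopha against 20.1, 31.9 and 18.1 CPM in Normal_lung (3.02 ± 0.29 SE; edgeR adjusted p = 0.000693). In each of these genes the tissues were wholly separate. Exons of Psph overlap Cct6a on the other strand.

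All 3 transport genes rose as well. Slc7a11 had 1598.5, 2309.8 and 2922.8 CPM in Normal_nasopha against 92.1, 178.2 and 109.2 CPM in Normal_lung, a log2 fold change of 4.17 ± 0.39 (SE; edgeR adjusted p = 0.000647). Slc3a2 was at 3.18 ± 0.37 (SE; edgeR adjusted p = 0.00129) and Slc7a5 at 1.34 ± 0.25 (SE; edgeR adjusted p = 0.00779). The arm's largest fold was that of Chac1, at 4.76 ± 0.72 (SE; edgeR adjusted p = 0.00363), with 57.8, 255.7 and 57.2 CPM in Normal_nasopha against 3.34, 6.07 and 4.26 CPM in Normal_lung. Asns was at 2.91 ± 0.42 (SE; edgeR adjusted p = 0.00288) and Trib3 at 2.95 ± 0.52 (SE; edgeR adjusted p = 0.00645).

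Atf4 itself had 421.0, 1075.0 and 343.1 CPM in Normal_nasopha against 143.8, 184.0 and 172.0 CPM in Normal_lung (1.88 ± 0.45 SE; edgeR adjusted p = 0.0197), and Atf5 was at 1.65 ± 0.49 (SE; edgeR adjusted p = 0.0431). Ddit3 and Ppp1r15a were not called (edgeR adjusted p = 0.0745 and 0.0761), and their Normal_nasopha values were spread by replicate 2. Ddit3 had 22.7, 212.9 and 16.9 CPM in Normal_nasopha against 11.25, 14.83 and 13.03 CPM in Normal_lung. Eif2ak3 was the 1 gene of the arm with a negative value (-0.38 ± 0.22 SE; edgeR adjusted p = 0.233).

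**Figure D5:**
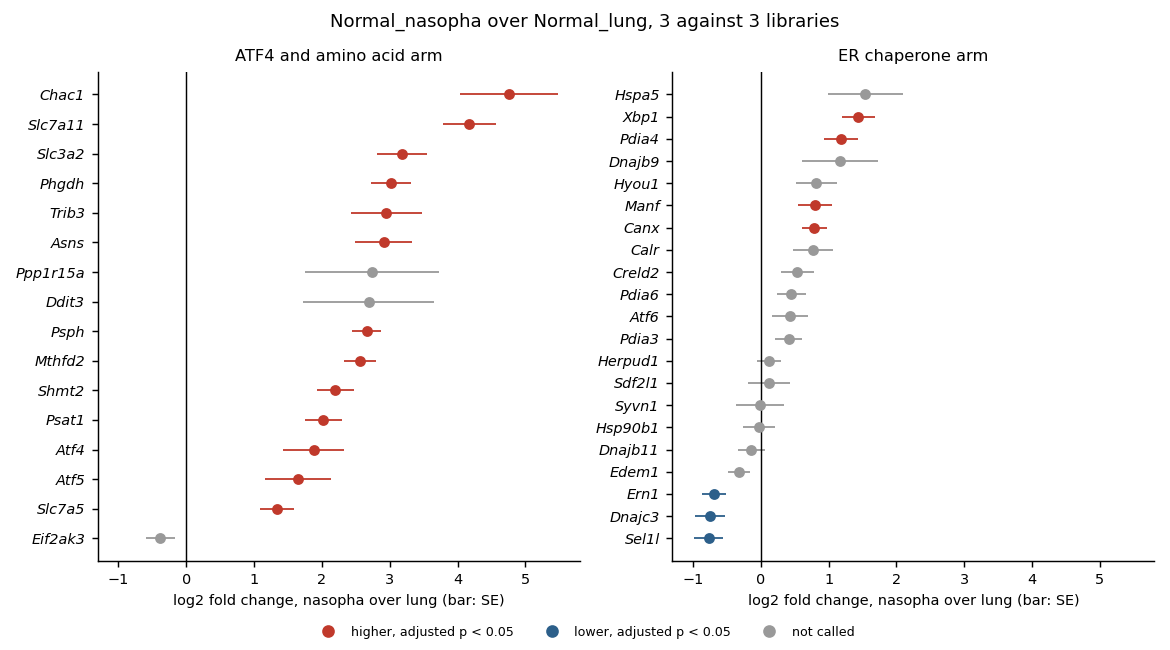
Log2 fold change of Normal_nasopha over Normal_lung (x axis, bar: SE) for each gene of the 2 arms (y axis, sorted), 3 against 3 libraries; red and blue mark genes higher or lower at an edgeR adjusted p under 0.05. In the ATF4 arm 15 of 16 values are positive, up to 4.76 for Chac1, and the ER arm lies between -0.77 and 1.54.

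Normal_nasopha replicate 2 carried the same signs as comparator replicate 2. The 2 columns are not treated as independent, so this is not a second observation. In Normal_nasopha replicate 2 basal markers summed to 3049.2 CPM, against 15198.2 and 10020.7 CPM in replicates 1 and 3. Its myeloid markers summed to 264.1 CPM, against 61.2 and 117.9 CPM. Without it the ATF4-arm median was 2.26, and 12 of the 13 calls remained, with Atf5 lost, where 5239 of 16472 genes passed. Atf4 and Atf5 were lost without any 1 Normal_lung library. Myeloid markers, at 1814.6 to 3007.9 CPM, and fibroblast markers, at 87.2 to 479.2 CPM, were higher in Normal_lung than in any Normal_nasopha library. Of the 7 myeloid markers, 1, 6 and 3 reached 10 CPM in Normal_lung replicates 1, 2 and 3, and 1 in Normal_nasopha replicate 2. Ptprc had 0 counts in Normal_nasopha replicate 2 and was detected in Normal_nasopha replicates 1 and 3. Alveolar type 2 markers summed to 60765.8 to 67934.3 CPM in Normal_lung and to 166.9 to 328.6 CPM in Normal_nasopha. Basal markers summed to 311.4 to 509.0 CPM in Normal_lung, below every Normal_nasopha library. The part of these cell types in the difference between tissues was not tested.

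In the ER arm of the normal organoids the factor gene Xbp1 rose, with 200.5, 242.9 and 331.1 CPM in Normal_nasopha against 86.2, 112.9 and 86.6 CPM in Normal_lung (1.44 ± 0.24 SE; edgeR adjusted p = 0.00551). Pdia4 (1.18 ± 0.25 SE; edgeR adjusted p = 0.0123), Canx (0.79 ± 0.19 SE; edgeR adjusted p = 0.0189) and Manf (0.80 ± 0.25 SE; edgeR adjusted p = 0.0489) rose too. Canx had 470.8, 438.8 and 380.5 CPM in Normal_nasopha against 228.8, 279.1 and 236.1 CPM in Normal_lung. The sensor gene Ern1 (-0.69 ± 0.18 SE; edgeR adjusted p = 0.0254), the ERAD adaptor Sel1l (-0.77 ± 0.21 SE; edgeR adjusted p = 0.0323) and Dnajc3 (-0.75 ± 0.22 SE; edgeR adjusted p = 0.0427) fell. Ern1 had 60.2, 77.4 and 62.4 CPM in Normal_nasopha against 114.2, 111.4 and 96.1 CPM in Normal_lung. Hspa5 had 983.6, 2501.0 and 519.6 CPM in Normal_nasopha against 385.7, 541.5 and 445.2 CPM in Normal_lung, overlapped, and was not called (1.54 ± 0.55 SE; edgeR adjusted p = 0.0735). The ERSE-bearing genes had a median of 0.50 with 1 called each way, and the other 13 a median of 0.41. The ER-arm count was 1 without Normal_lung replicate 1, 2 without replicate 2 and 1 without replicate 3. Calls over all genes fell too, from 4935 of 15886 to 3050 of 16581, 3185 of 16476 and 2657 of 16520.

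Other targets of ATF4 rose in Normal_nasopha over Normal_lung, where 15.4% of all genes rose and 15.6% fell. Of 38 such genes 29 rose and 1 fell (median 1.78), led by Cars, the cysteinyl-tRNA synthetase (2.71 ± 0.20 SE; edgeR adjusted p = 0.000299), and Slc7a1, a cationic amino acid transporter (2.37 ± 0.21 SE; edgeR adjusted p = 0.000503). Of 12 genes for eIF2 kinases, eIF2B and related subunits 3 rose and 1 fell. Of 21 other ER folding genes 1 rose and 5 fell, with Txndc5, a disulfide isomerase, lower (-1.08 ± 0.18 SE; edgeR adjusted p = 0.00458), and of 17 other ERAD genes 3 fell.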

How the data were processed

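Bulk RNA-seq of 16 mouse organoid libraries in 6 groups was analysed from 6 deposited tables. Per the file headers, the authors deposited whole-number counts per gene, log2 fold changes and adjusted p-values. The submitters' processing notes name STAR, DESeq2, DESeq and mm10, without versions, and the counting tool is not given there. From the counts, edgeR 4.0.16 (R 4.3.3) fitted quasi-likelihood models with TMM scaling and its filter on low counts, and p-values were adjusted by Benjamini-Hochberg over all genes tested and called under 0.05. The 10 tumour libraries were fitted together, then with the 3 comparator columns, and the normal tissues apart. DESeq2 1.42.0, RLE scaling, no filter, a replicate block, a length and GC correction (mgcv 1.9.3), other sets of libraries and leaving out each library were alternatives. Same-numbered libraries did not deviate together, so the numbers do not pair them. Scripts were tested on simulated data. A further 32 columns of per-library values were not used, and 13 columns that repeat a library were identical. Named genes were Atf4, Hspa5 and up to 4 called members of smallest adjusted p per comparison and arm, or the 2 of smallest p where none was called. In other pathway lists they were up to 2 called genes. Further members were named after their values were seen. The members, lists and tests were chosen with earlier results of these data known. Protein sequences were not used here. Library totals were 12535166 to 21737184 counts, and floors cover counting error only.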

Additional observations from a re-analysis of the deposited data

Results flagged for a closer look

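In 74 sets of 5 libraries (each of the 37 genes within TMPL and within TMP), 4 held a library whose gap to the next, divided by the range of the set, was above Dixon's 95% critical value. Chance flags about 1 in 20 groups, and 4 of 74 is near that share. All 4 genes belong to the ER arm, which holds 21 of the 37 genes. Dnajb9 had 29.26 CPM in Lung-LMP1 replicate 2, above 19.7 to 21.56 CPM in the other TMPL libraries. Sel1l had 190.5 CPM in the same library, above 141.9 to 154.9 CPM. That library also had the highest secretory airway marker sum of the tumours, 259.3 CPM against at most 11.24 CPM in the other tumour libraries, and its part in these values was not tested. Pdia6 had 261.1 CPM in Lung-Ctr replicate 1, above 179.3 to 202.0 CPM in the other TMP libraries. Manf had 103.8 CPM in Ctr replicate 1, above 47.3 to 60.94 CPM.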

How the results depend on the processing

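Counts of genes called are given for the ATF4 arm and then the ER arm. Leaving out 1 library each gave 0 to 4 and 0 to 2 in LMP1 over Ctr, 0 to 1 and 0 to 2 in Lung-LMP1 over LMP1, 2 to 5 and 1 to 3 in TMPL over TMP, 1 to 9 and 0 to 5 in Ctr over the comparator, 9 to 13 and 7 to 10 in tumours over the comparator, and 11 to 15 and 1 to 8 in Normal_nasopha over Normal_lung. It gave 0 in Lung-LMP1 over Lung-Ctr, Lung-Ctr over Ctr and the interaction. Over all genes it gave 25 to 1920 calls in LMP1 over Ctr and 33 to 949 in Lung-LMP1 over LMP1. TMPL over TMP had 263 to 2027 and Ctr over the comparator 718 to 3576. Tumours over the comparator had 4488 to 6445 and Normal_nasopha over Normal_lung 2657 to 5421. Lung-LMP1 over Lung-Ctr had 0 to 33, Lung-Ctr over Ctr 0 to 31 and the interaction 4 to 331. With DESeq2, LMP1 over Ctr gave 5 and 4, Lung-LMP1 over Lung-Ctr 3 and 1, Lung-LMP1 over LMP1 3 and 1, the interaction 1 in the ATF4 arm, and TMPL over TMP 5 in the ER arm. In LMP1 over Ctr the authors' deposited values called 4 ATF4-arm genes higher and 1 lower, and 0 ER-arm genes higher and 4 lower. Of the 13695 genes with an adjusted p there, 1645 were higher and 2146 lower. With the length and GC correction, LMP1 over Ctr gave 1 and 0, TMPL over TMP 2 and 1, Lung-LMP1 over LMP1 1 in the ER arm, Ctr over the comparator 1 and tumours over the comparator 5 in the ER arm. With the replicate block, a pairing the data do not bear out (same-number correlations from -0.38 to 0.19), LMP1 over Ctr gave 1 and 0, and the ER arm gave 1 in TMPL over TMP, 0 in Ctr over the comparator and 2 in Normal_nasopha over Normal_lung. With no filter on low counts the ER arm gave 1 in TMPL over TMP and 3 in Ctr over the comparator. With only the groups compared, LMP1 over Ctr gave 2 in the ER arm and Lung-LMP1 over LMP1 2 and 2. TMPL over TMP without the prefix term gave 1 in the ER arm, and Ctr over the comparator with all 13 libraries 11 in the ATF4 arm. The ATF4-arm median of tumours over the comparator was 0.03 with the length and GC correction and from -0.58 to 0.01 when 1 library was left out (0.01 without comparator replicate 2), against -0.39, and the cause was not tested. Over all genes, LMP1 over Ctr called 2210 genes, 483 with the block, 1017 with the correction and 3484 with DESeq2. TMPL over TMP called 1663, of which 58.4% were higher. It called 785 with the block, 678 with the correction (79.9% higher), 1045 without the prefix term and 3017 with DESeq2 (44.2% higher). Lung-LMP1 over LMP1 called 1361, 360 with the block, 2488 with DESeq2 and 2682 with only the groups compared. Ctr over the comparator called 2917, 1001 with the block, 1519 with the correction and 4944 with all 13 libraries, and the interaction 120, 2 with the block and 906 with DESeq2. DESeq2 called 791 genes in Lung-LMP1 over Lung-Ctr and 42 in Lung-Ctr over Ctr, where edgeR called 0. With 2 or 3 libraries a group, differences near the spread between libraries are not detectable.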

Other observations

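Lists of neighbouring stress pathways moved in the normal organoids and against the comparator. In Normal_nasopha over Normal_lung, 9 of 12 NRF2 target genes rose and none fell (median log2 fold change 1.79), among them Gclm, a subunit of the enzyme that starts glutathione synthesis (3.76 ± 0.48 SE; edgeR adjusted p = 0.00193), and G6pdx, which supplies NADPH (1.86 ± 0.25 SE; edgeR adjusted p = 0.00225). Of 11 cytosolic heat shock genes 7 rose and none fell (median 1.66), with the small chaperone Hspb1 at 4.63 ± 0.42 (SE; edgeR adjusted p = 0.000584) and Hsph1 at 3.08 ± 0.51 (SE; edgeR adjusted p = 0.00511). Of all genes 15.4% rose there. Basal epithelial markers moved with these lists (6 of 8 higher), and their part was not tested.

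In tumours over the comparator, where 18.9% of all genes rose and 25.8% fell, 11 of 12 NRF2 targets fell and none rose (median -2.85), with Hmox1, heme oxygenase, at -7.74 ± 0.48 (SE; edgeR adjusted p = 7.6e-06) and Osgin1 at -3.98 ± 0.27 (SE; edgeR adjusted p = 9.35e-06). Of 38 other ATF4 targets 10 rose and 14 fell, with the stress cytokine Gdf15 at -4.92 ± 0.49 (SE; edgeR adjusted p = 6.8e-05). Basal epithelial markers (7 of 8), secretory airway markers (6 of 6 tested), alveolar type 2 markers (6 of 8) and myeloid markers (4 of 4 tested) also fell, and their part was not tested. Of 17 other ERAD genes 7 fell and none rose, with the lectin Os9 at -1.66 ± 0.17 (SE; edgeR adjusted p = 7.8e-05). In TMPL over TMP no NRF2 target was called with edgeR, and 3 of 12 were at an unadjusted p under 0.05, where 30.3% of all genes were.

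The ratio of CPM between comparator and Normal_nasopha columns of the same number lay between 1.1 and 1.24 for 32 of the 37 genes. It lay outside for the other 5, which were Hsp90b1 (2.23 to 2.29), Manf (1.99 to 2.08), Phgdh (1.55 to 1.62), Eif2ak3 (1.33 to 1.54) and Ern1 (0.79 to 0.80). Of these, Manf, Phgdh and Ern1 were called in tumours over the comparator. Exons of Hsp90b1, Manf and Eif2ak3 overlap genes on the other strand, as do those of Psph, whose ratios lay within the range. The cause was not tested.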
